A study of Mus musculus with 11 samples.

Results

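The axon guidance ligands and receptors were taken as every gene in the data whose symbol names a semaphorin of classes 3 to 7, a plexin, a neuropilin, an ephrin, an Eph receptor, a Slit, a Robo, a netrin, an Unc5 receptor or Dcc. There were 69 such genes of the 24421 listed, 35 of them ligands and 34 receptors. They comprise 20 semaphorins, 9 plexins, 2 neuropilins, 8 ephrins, 14 Eph receptors, 3 Slits, 4 Robos, 4 netrins and 5 netrin receptors. The rule selects by symbol and sets no threshold on a measured value.

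RNA was sequenced from GFP-positive astrocytes sorted out of 16-week-old Aldh1l1-eGFP mice on a C57BL/6 background, in which a bacterial artificial chromosome drives eGFP from the regulatory region of Aldh1l1, a folate enzyme of astrocytes. All groups carried this transgene and none was treated, and the groups differ in the dissected region: 3 samples of the olfactory bulb (OB), 3 of the hippocampus (HC), 2 of the cortex (CX) and 3 of the brainstem (BS). The labels do not say whether replicates came from separate animals, so the p-values measure the spread between these samples, which may be technical. Each value is a gene's read count divided by a size factor of its sample, called the normalized value below.

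These proteins steer growing axons and migrating cells, and in the adult brain, where astrocytes are among the cells that make them, they are also known from synapses and blood vessels. Semaphorins signal through plexins, with neuropilins as co-receptors for most of the secreted class 3. Membrane-bound ephrins and Eph receptors signal at cell contacts, Slits repel through Robos, and netrins attract through Dcc or repel through Unc5 receptors.

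Between 2830746 and 14151670 reads per sample had been counted on genes, with a median of 5552215, and 3 reads were worth a value of 1.10 to 6.31, depending on the sample's depth. Such a floor covers counting error only. All 9 astrocyte markers examined, from Aldh1l1 to Slc1a2 and Aqp4, were detected in all 11 samples. Their summed value was 96320 to 284100 in the BS against 233400 to 634000 in the other regions. Most of this sum was Slc1a2, with 61760 to 208900 in the BS and 162700 to 541900 elsewhere. Other markers overlapped, except for Slc1a3, which had 1953 to 6315 in the BS and 14220 to 33550 elsewhere. Aqp4 had 9275 to 20770 in the BS and 5077 to 13520 elsewhere, and S100b 3030 to 6281 and 1638 to 3932. RNA of other cell types was present as well. Summed markers of choroid plexus spanned 71720 to 145000 over the HC samples and 51540 to 243200 over those of the BS, against 219 to 310 for the OB and 1733 to 5008 for the CX. The transthyretin gene Ttr led this sum in all regions but the OB, where most of it was Aqp1, at 135 to 209. Oligodendrocyte markers summed to 51370 to 88260 in the BS and 9464 to 39230 elsewhere. Markers of olfactory ensheathing glia summed to 18330 to 24610 in the OB, and those of neuroblasts to 942 to 1307, against 56.1 to 299 for neuroblasts in the other regions. The ensheathing list overlaps with the lists of the oligodendrocyte lineage, and the neuroblast list shares Tubb3 and Gad1 with that of neurons. In sorted bulk samples, fewer cells of a type and less RNA per cell cannot be told apart.

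Most guidance genes were detected in these astrocyte samples, though no share over all genes was counted beside the numbers that follow. Of the 69, 64 had a mean value over 5, 27 a mean over 100 and 2 a mean over 1000. A value of 5 is under the 3-read floor of BS samples 2 and 3, which is 6.01 and 6.31. Most abundant was Sema6d, a transmembrane semaphorin that binds plexins of class A. Its values were 2955, 2755 and 3559 in the OB, 1951, 3043 and 3057 in the HC samples, 3361 and 3576 in the CX and 2413, 5641 and 3923 in the BS, and the regions overlapped. Plxnb1, a receptor for Sema4d, came next with 1389, 1510 and 1603 in the OB, 1419, 2294 and 2080 in the HC samples, 2924 and 2668 in the CX and 872, 2406 and 1109 in the BS. Both CX values lay above the other 9, but neither gene passed the test among the regions (limma with Benjamini-Hochberg adjustment, adjusted p = 0.508 for Sema6d and 0.110 for Plxnb1).

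Levels of different genes can be set side by side only per kilobase of exon. On that scale Sema6d had a mean of 312 and Plxnb1 of 192 normalized units per kilobase. The leading gene of the other families lay lower, with 52.5 for Epha4, 48.4 for Efna5, 40.8 for Nrp1, 39.9 for Robo2, 35.6 for Ntn4, 11.2 for Unc5b and 10.98 for Slit2. At the other end were Ntn5 and Robo3, with 4 and 9 reads over all samples.

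**Figure D1:**
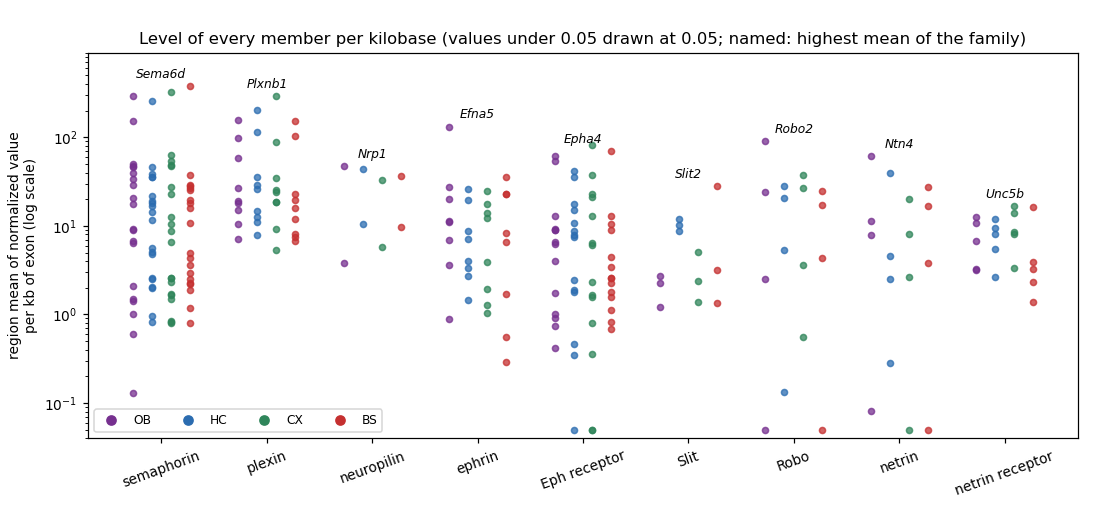
Mean normalized value per kilobase of exon (log scale) of each of the 69 genes in each region, grouped by family, with points coloured by region and the gene of highest mean named. Sema6d, with a mean of 312 over all samples, and Plxnb1, with 192, stand above the genes of the other families named.

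The question put to the data was which guidance genes differ between astrocytes of the 4 regions. A limma fit on log2(value + 1) over the 13875 genes that passed a filter on low counts included 63 of the 69. Efna1, Efna3, Epha8, Ntn5, Robo3 and Sema4f did not pass it. Fold changes on this scale understate the difference of low genes. Differences among the regions passed an adjusted p of 0.05 for 23 members, where 16.5% of all genes tested did so, and an unadjusted p of 0.05 for 33, beside 28.7%. These were 6 semaphorins, 1 plexin, 1 neuropilin, 2 ephrins, 5 Eph receptors, 1 Slit, 1 Robo, 2 netrins and 4 of the 5 netrin receptors. The 5 lowest p-values belonged to Sema5a, Robo2, Slit2, Ephb1 and Efna5. Leaving out each sample in turn gave 19 to 26 members.

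**Figure D2:**
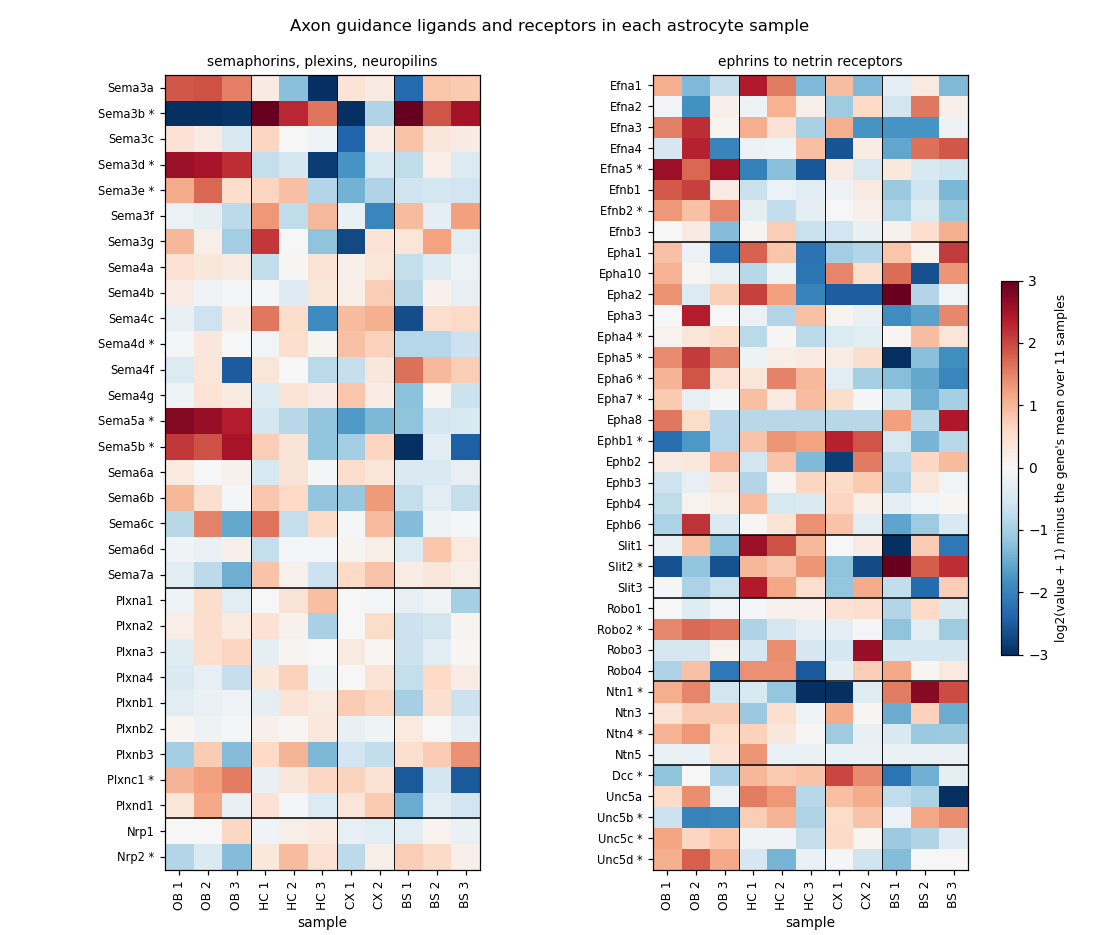
Log2(value + 1) of each of the 69 genes in each of the 11 samples, minus the gene's own mean, with red above and blue below that mean and colours saturating at a difference of 3. Asterisks mark the 23 genes with an adjusted p under 0.05 among the regions; Sema5a, Sema3d and Efna5 are red in all 3 OB samples, and Slit2 in all 3 BS samples.

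Each region was then set against all remaining samples, the contrast the study made with DESeq2 and here fitted with limma. The remaining samples were pooled, so differences among their regions enter the spread behind these p-values and standard errors. A gene that also differs among the pooled regions is therefore called less readily. A fit with a mean for each region gave more calls in the HC, CX and BS, as listed in the closing section, but its share over all genes was not counted. A call needed an unadjusted p under 0.01, a change of more than 1.5-fold and, in some region, 2 or more replicates with values above 5. The study's minimum was in RPM, whereas here it is on the normalized value, and unlike the study's region-specific genes, a gene may be called here in more than 1 region. In the OB 18 members were called, beside 8.04% of all genes tested, 12 of them higher (4.15% of all genes) and 6 lower (3.89%). In the BS 12 were called, beside 9.03%, with 2 higher (3.98%) and 10 lower (5.05%). The HC gave 1 call, beside 1.28% of all genes, which was lower (1%), and none higher (0.281%). The CX gave 1, beside 2.77%, which was higher (1.02%), and none lower (1.74%). At an adjusted p under 0.05 with the same fold change there were 9 members in the OB, beside 4.54% of all genes, with 8 higher (2.55%) and 1 lower (1.99%). In the BS there were 7, beside 5.31%, with 1 higher (1.96%) and 6 lower (3.35%). None passed this rule in the HC or the CX with limma, where 0% and 0.0144% of all genes did. An unadjusted p under 0.05 was reached by 7 members in the HC (5.69% of all genes), 8 in the CX (9.89%), 22 in the OB (17.6%) and 25 in the BS (21.3%). The calls rested in part on single libraries, though shares over all genes were not counted for any fit with a sample left out. The OB count was 10 without OB sample 1 and 11 without OB sample 2, and the BS count was 6 without BS sample 1 and 7 without BS sample 3. In the HC the count was 0 without HC sample 3, 3 without BS sample 1 or CX sample 1, and 2 without HC sample 1, HC sample 2, CX sample 2 or BS sample 3. The CX count was 0 without CX sample 1, OB sample 3, BS sample 1 or BS sample 3, 2 without HC sample 1 and 3 without HC sample 2 or HC sample 3.

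All samples of the OB lay above all other samples for 11 of the members tested, beside 4.93% of all genes, and below them for 0, beside 3.24%. For the HC these counts were 1 and 1 (0.505% and 1.03%), for the CX 4 and 3 (5.02% and 3.15%) and for the BS 2 and 5 (3.7% and 4.19%).

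The median log2 difference of the 63 members in the fit was 0.24 in the OB and -0.51 in the BS, against 0.02 for all genes tested in each of these. In the HC and CX it was 0.13 and 0.08, against 0.02 and -0.03. Of all 69 genes, the region with the lowest mean was the BS for 32, the OB and the CX for 14 each and the HC for 9, whereas the highest mean lay in the OB for 23, the CX for 18, the BS for 16 and the HC for 12. These ranks were not counted over all genes, so they are not read as a trait of the members. They include the 6 genes outside the fit. Ties at 0 were placed arbitrarily: Ntn5 (CX and BS) under the BS, and Epha8 (HC and CX) under the CX.

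**Figure D3:**
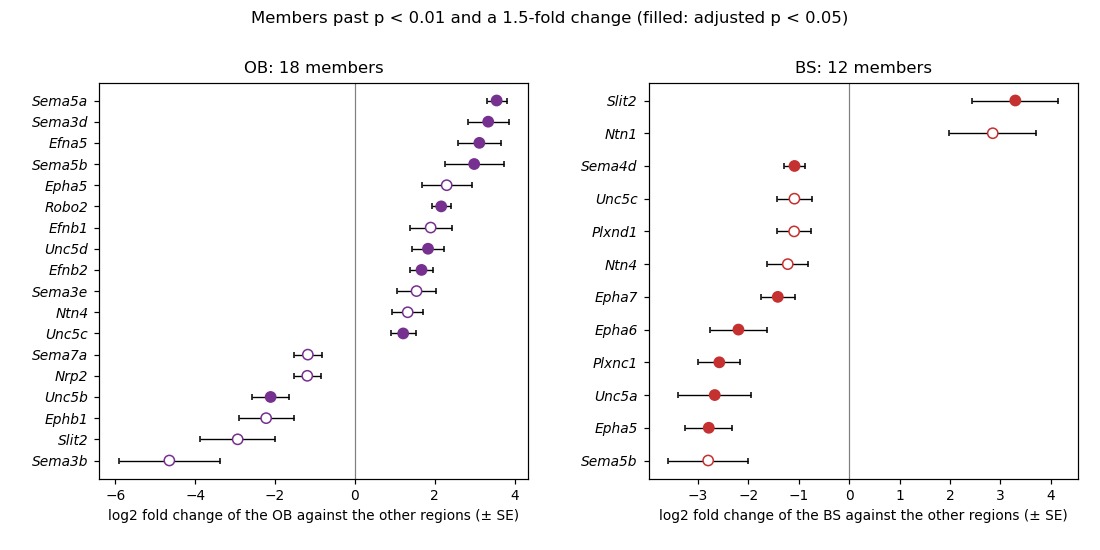
Log2 fold change with its standard error (bars), on the log2(value + 1) scale, for the 18 members called in the OB (left) and the 12 called in the BS (right), each region against all other samples. Filled points had an adjusted p under 0.05; 12 points in the OB and 2 in the BS lie above 0. Sema3b, the lowest point of the OB, rests on 3 reads in that region, so that its position depends on the 1 added before the logarithm.

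The 5 genes with the lowest p-values lie on 5 chromosomes, and their promoters are shown so that the stretch upstream of each can be read beside its values. Sema5a spans chr15:32244810-32696341 of GRCm38 in GENCODE, Robo2 chr16:73891839-74411825, Slit2 chr5:47983138-48307733, Ephb1 chr9:101922128-102354693 and Efna5 chr17:62604184-62881317. Each sequence below is the 250 bases before the RefSeq start in GRCm38.p6, written 5′ to 3′ on the gene's strand, with CG dinucleotides in capitals. RefSeq lists 3 starts for Robo2, and the one beside the GENCODE gene is printed.
Sema5a, chr15:32244563-32244812, + strand: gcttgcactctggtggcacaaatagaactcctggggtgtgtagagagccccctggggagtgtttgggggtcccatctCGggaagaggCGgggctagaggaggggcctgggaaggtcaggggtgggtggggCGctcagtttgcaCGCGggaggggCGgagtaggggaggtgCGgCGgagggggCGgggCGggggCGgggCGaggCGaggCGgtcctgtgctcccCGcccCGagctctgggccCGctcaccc
Robo2, chr16:74411826-74412075, - strand: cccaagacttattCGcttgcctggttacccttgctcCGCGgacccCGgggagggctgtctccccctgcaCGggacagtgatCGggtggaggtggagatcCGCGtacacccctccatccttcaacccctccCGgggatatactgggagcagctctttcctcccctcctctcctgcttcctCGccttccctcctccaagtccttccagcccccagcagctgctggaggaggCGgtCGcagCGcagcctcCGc
Slit2, chr5:47982905-47983154, + strand: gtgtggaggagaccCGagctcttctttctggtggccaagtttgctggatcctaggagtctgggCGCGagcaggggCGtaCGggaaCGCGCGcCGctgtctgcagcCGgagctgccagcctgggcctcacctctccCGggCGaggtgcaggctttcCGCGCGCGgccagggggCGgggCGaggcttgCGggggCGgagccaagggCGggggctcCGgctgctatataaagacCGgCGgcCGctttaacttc
Ephb1, chr9:102354694-102354943, - strand: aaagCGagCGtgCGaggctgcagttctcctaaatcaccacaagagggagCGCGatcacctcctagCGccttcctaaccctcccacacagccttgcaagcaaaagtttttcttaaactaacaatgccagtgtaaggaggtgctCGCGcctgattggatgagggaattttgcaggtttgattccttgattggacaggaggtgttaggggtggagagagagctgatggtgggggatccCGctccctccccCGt
Efna5, chr17:62881318-62881567, - strand: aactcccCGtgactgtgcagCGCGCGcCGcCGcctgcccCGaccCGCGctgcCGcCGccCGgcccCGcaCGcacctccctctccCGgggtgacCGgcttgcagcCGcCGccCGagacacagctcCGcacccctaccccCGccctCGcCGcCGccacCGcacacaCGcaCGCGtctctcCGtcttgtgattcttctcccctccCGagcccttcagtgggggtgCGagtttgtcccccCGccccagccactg
CG was searched as the letters CG, which read the same on both strands. The 250 bases held 17 in Sema5a, 14 in Robo2, 25 in Slit2, 10 in Ephb1 and 32 in Efna5. RefSeq promoters were matched by symbol for 59 of the 69 members, 75 promoters in all, with a median of 15 CG, the same as the median over the promoters of all genes tested. Over all RefSeq promoters the median was 6. Sema5a, Slit2 and Efna5 lay above the median of tested genes, and Robo2 and Ephb1 below it. The letters TTGGC, a short motif of nuclear factor I, were present on either strand in 36% of member promoters and 44.2% of those of genes tested.

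The semaphorins held the gene with the lowest p-value among the regions. Sema5a, a transmembrane semaphorin with thrombospondin repeats, had values of 3213, 2908 and 2440 in the OB. It reached 329, 267 and 207 in the HC samples, 146 and 184 in the CX and 205, 331 and 345 in the BS. Every OB sample lay above the other 8, and the OB mean of 2853 ± 389.6 (SD, n = 3) was 9.72-fold that of the next region. The log2 fold change of the OB against the others was 3.55 ± 0.25 (SE, adjusted p = 5.53e-06), and among the regions the adjusted p was 9.56e-08.

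Sema3d and Sema5b also had their highest mean in the OB, with the other regions in different orders. Sema3d, a secreted class 3 ligand, had values of 277, 257 and 216 in the OB, 27.5, 32.0 and 5.503 in the HC samples, 12.6 and 32.2 in the CX and 26.3, 52.1 and 33.7 in the BS. Sema5b, the closest relative of Sema5a, had 320, 278 and 412 in the OB, 123, 95.9 and 31.6 in the HC samples, 35.2 and 115 in the CX and 6.31, 58.1 and 12.6 in the BS. In both genes all OB samples lay above all others. The OB log2 fold change was 3.34 ± 0.52 for Sema3d (adjusted p = 0.00199) and 2.99 ± 0.74 for Sema5b (adjusted p = 0.0335), and among the regions the adjusted p was 9.11e-04 and 0.00320. Sema5b was also called lower in the BS, by a log2 fold change of -2.80 ± 0.79, with an adjusted p of 0.0560, a call lost without BS sample 1 or BS sample 3 (unadjusted p = 0.0329 and 0.0187).

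Sema3e, a ligand of Plxnd1, had values of 77.1, 119 and 51.7 in the OB, 56.2, 66.7 and 18.7 in the HC samples, 12.6 and 18.4 in the CX and 23.1, 24.0 and 23.2 in the BS. The OB and HC overlapped, and both CX samples were the lowest of all. Its adjusted p among the regions was 0.0365, and the call was lost without any 1 of OB samples 1 and 2, both CX samples and BS samples 1 and 3, with adjusted p-values of 0.0543 to 0.142. The OB call (log2 fold change 1.54 ± 0.49) was lost without any 1 of OB samples 1 and 2, HC sample 3 and each CX and BS sample, at unadjusted p-values of 0.0103 to 0.0523. Sema3a, a secreted repellent, had 94.5, 97.9 and 74.3 in the OB and 0.367 to 46.1 elsewhere. All OB samples lay above the others, but the adjusted p among the regions was 0.0956.

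Sema4d, a transmembrane ligand of Plxnb1, was lowest in the BS. It had values of 235, 306 and 242 in the OB, 227, 342 and 253 in the HC samples, 440 and 389 in the CX and 132, 132 and 154 in the BS. The CX lay above and the BS below all other samples. Its BS log2 fold change was -1.08 ± 0.22 (adjusted p = 0.0105), and the adjusted p among the regions was 0.00127.

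Sema3b, another secreted class 3 ligand, was at 0, 0.789 and 1.08 in the OB, which is 3 reads over the region, and at 0 and 7.67 in the CX. In the HC it reached 134, 75.8 and 48.4 and in the BS 211, 58.1 and 90.5. All HC and BS samples lay above all OB and CX samples, and the adjusted p among the regions was 9.77e-05. Sema3b was called lower in the OB, a call lost without OB sample 1 (unadjusted p = 0.0144). Ttr lay at 5.39 to 16.6 in the OB, 4204 and 1323 in the CX, and 46380 to 221900 in the HC and BS together. Ttr and the summed choroid plexus markers thus separated the same samples as Sema3b, except that the CX sample with the higher Ttr had the Sema3b value of 0. Aqp1 of that list did not, with 135 to 209 in the OB, 2.51 and 6.13 in the CX and 89.5 to 399.5 in the HC and BS together. The part of these markers in the Sema3b result was not tested. Sema7a, which carries a lipid anchor and binds integrins and Plxnc1, had 42.4, 30.8 and 18.9 in the OB, 98.1, 58.5 and 34.1 in the HC samples, 81.7 and 98.1 in the CX and 63.1, 68.1 and 61.0 in the BS. OB sample 1 lay above HC sample 3, and all other OB values were the lowest. It was called lower in the OB, with a log2 fold change of -1.18 ± 0.35 and an adjusted p of 0.0803, a call lost without OB sample 2 or OB sample 3 (unadjusted p = 0.0135 and 0.0436).

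**Figure D4:**
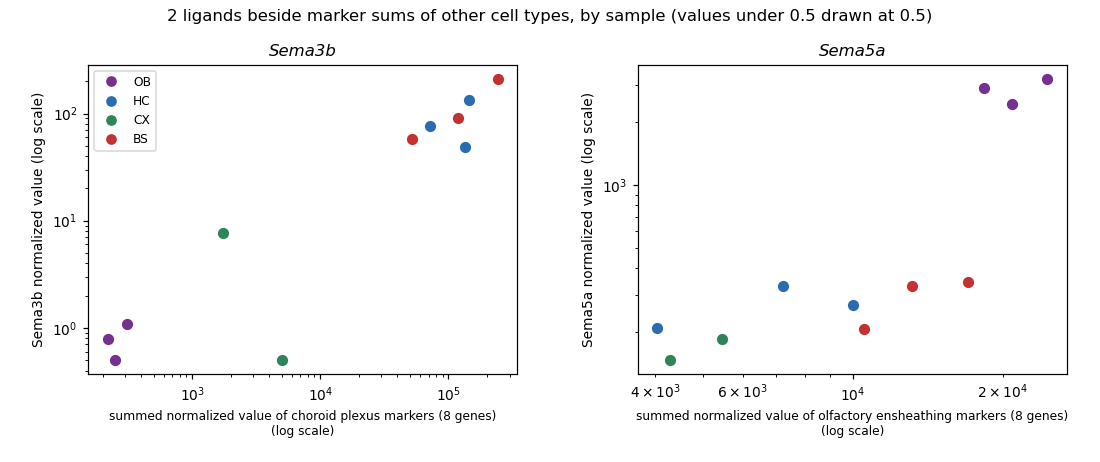
Normalized value of Sema3b against the summed value of 8 choroid plexus markers (left) and of Sema5a against the summed value of 8 olfactory ensheathing markers (right), 1 point per sample coloured by region, all axes on a log scale. The 3 OB samples lie at 219 to 310 of summed choroid plexus markers with Sema3b at or near 0, and at 18330 to 24610 of summed ensheathing markers with Sema5a at 2440 to 3213.

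The other 13 semaphorins did not pass the test among the regions or in any region, or in the case of Sema4f did not enter it. Their mean values ran from 6.04 for Sema4f to 3294 for Sema6d.

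Among the plexins, 1 of 9 differed among the regions, where 16.5% of all genes tested did. Plxnc1, the receptor of Sema7a, had values of 403, 466 and 579 in the OB, 171, 251 and 304 in the HC samples, 317 and 270 in the CX and 33.6, 134 and 33.7 in the BS. All OB samples lay above and all BS samples below the rest. The BS log2 fold change was -2.57 ± 0.41 (adjusted p = 0.00227), and the adjusted p among the regions was 4.56e-04. Plxnd1, the receptor of Sema3e, had 116, 200 and 77.6 in the OB, 123, 86.8 and 68.2 in the HC samples, 117 and 156 in the CX and 31.5, 72.1 and 61.0 in the BS. The BS was called lower, by a log2 fold change of -1.09 ± 0.34 with an adjusted p of 0.0805. This call was lost without any 1 of OB sample 1, HC sample 1, both CX samples and BS samples 1 and 3, at unadjusted p-values of 0.0105 to 0.0626. The other plexins had means from 66.8 for Plxnb3 to 1843 for Plxnb1.

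Of the neuropilins, Nrp1 was the more abundant, with 392, 394 and 603 in the OB, 365, 442 and 474 in the HC samples, 329 and 311 in the CX and 316, 419 and 341 in the BS, and its regions overlapped. Nrp2, which binds class 3 semaphorins such as Sema3f, had 43.4, 60.0 and 32.3 in the OB, 101, 158 and 112 in the HC samples, 46.5 and 92 in the CX and 136, 120 and 90.5 in the BS. All HC and BS samples lay above the OB, which overlapped with the CX. The adjusted p among the regions was 0.0240, a call lost without OB sample 1, OB sample 3 or HC sample 2 (adjusted p = 0.0576 to 0.0954). The OB was called lower (log2 fold change -1.19 ± 0.33, adjusted p = 0.0599), but not without OB sample 1 or OB sample 3 (unadjusted p = 0.0117 and 0.0250).

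Among the ephrins, Efna5 and Efnb2 differed among the regions, both with the highest values in the OB. Efna5 is a lipid-anchored ligand of EphA receptors. Its values were 631, 349 and 605 in the OB, 25, 43.8 and 17.2 in the HC samples, 124 and 75.1 in the CX and 131, 76.1 and 69.5 in the BS. All OB samples were above and all HC samples below the rest, and the OB mean of 528 ± 156 (SD, n = 3) was 18.4-fold that of the HC, with an adjusted p among the regions of 1.88e-05. Against the other regions, the log2 fold change was 3.12 ± 0.53 in the OB (adjusted p = 0.00355) and -2.67 ± 0.70 in the HC (adjusted p = 0.529), where the call was lost without HC sample 3 (unadjusted p = 0.0149).

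Efnb2, a transmembrane ephrin known from arteries, had 198, 149 and 223 in the OB, 66.8, 47.5 and 66.8 in the HC samples, 79.1 and 88.9 in the CX and 41.0, 60.1 and 35.8 in the BS. The OB lay above all others, and its log2 fold change was 1.67 ± 0.30 (adjusted p = 0.00457, and 0.00133 among the regions). Summed endothelial markers were at 270 to 1235 in the OB and 371 to 2586 elsewhere, and their part was not tested. Efnb1, its relative, had 47.8, 55.3 and 15.1 in the OB, 7.5, 11 and 9.91 in the HC samples, 11.3 and 15.3 in the CX and 5.26, 8.01 and 4.21 in the BS, so that OB sample 3 lay within the range of the other regions. It was called higher in the OB (log2 fold change 1.90 ± 0.53, adjusted p = 0.0598), a call lost without OB sample 1 or OB sample 2 (unadjusted p = 0.0241 and 0.0282). Efna1 and Efna3 did not enter the test, and Efna2, Efna4 and Efnb3 did not pass it.

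The Eph receptors split into genes high in different regions. Ephb1, a receptor of B-type ephrins, had 27.1, 39.5 and 72.7 in the OB, 241, 333 and 311 in the HC samples, 666 and 492 in the CX and 94.6, 50.1 and 73.7 in the BS. Both CX samples lay above the HC, and all HC samples above the OB and BS, which overlapped. The CX mean was 12.5-fold that of the OB, and the adjusted p among the regions was 1.39e-05. An antisense gene, Gm26846, shares 2.17% of the exon bases of Ephb1, and whether the counting used strand is not given in the sources used here. Against the other regions pooled, Ephb1 was called higher in the CX (log2 fold change 2.56 ± 0.81, adjusted p = 0.338) and lower in the OB (-2.22 ± 0.69, adjusted p = 0.0911). The CX call was lost without any 1 of both CX samples, OB samples 2 and 3 and each BS sample, at unadjusted p-values of 0.0103 to 0.0624. The OB call was lost without OB sample 1, OB sample 2 or any HC sample (0.0103 to 0.0374).

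Epha5, which binds ephrins such as Efna5, had 734, 1172 and 772 in the OB, 245, 311 and 328 in the HC samples, 320 and 397 in the CX and 33.6, 114 and 75.8 in the BS. The OB lay above and the BS below all other samples, and the adjusted p among the regions was 2.02e-05. Its log2 fold change was -2.78 ± 0.46 in the BS (adjusted p = 0.00296) and 2.30 ± 0.62 in the OB (adjusted p = 0.0525), where the call was lost without OB sample 2 (unadjusted p = 0.0170). The ligand Efna5 and this receptor both had their highest mean in the OB, while the lowest was in the HC for the ligand and in the BS for the receptor.

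Epha6 and Epha7, further receptors of A-type ephrins, were lowest in the BS. Epha6 had 40.2, 74.2 and 26.4 in the OB, 25, 55.7 and 38.9 in the HC samples, 15.1 and 9.20 in the CX and 7.36, 6.01 and 4.21 in the BS. Epha7 had 90.1, 44.2 and 50.1 in the OB, 98.1, 61.2 and 99.1 in the HC samples, 75.4 and 50.6 in the CX and 33.6, 18 and 25.3 in the BS. All BS samples lay below all others in both genes. The BS log2 fold change was -2.20 ± 0.57 for Epha6 and -1.42 ± 0.34 for Epha7 (adjusted p = 0.0386 and 0.0263), and the Epha6 call was lost without BS sample 3 (unadjusted p = 0.0106). Among the regions the adjusted p was 0.00770 for Epha6. For Epha7 it was 0.0363, and this was lost without any 1 of OB sample 3, HC samples 1 and 3, CX sample 1 and BS samples 2 and 3 (adjusted p = 0.0575 to 0.0997).

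Epha4, which binds ephrins of both types and is known in astrocytes, had 427, 509 and 569 in the OB, 225, 407 and 226 in the HC samples, 296 and 313 in the CX and 415, 749 and 514 in the BS. The OB and BS lay above the other regions in every sample, and overlapped with each other. Its adjusted p among the regions was 0.0279. The call was lost without any 1 of OB samples 2 and 3, HC samples 1 and 3, both CX samples and BS sample 3 (adjusted p = 0.0564 to 0.0718). No region passed alone. The other 9 Eph receptors, among them the abundant Ephb3 with a mean of 101, passed neither the test among the regions nor that in a region, or like Epha8 did not enter it.

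Slit2, a secreted repellent, was highest in the BS. Its values were 19.5, 53.7 and 19.4 in the OB, 247, 216 and 310 in the HC samples, 52.8 and 18.4 in the CX and 1121, 435 and 579 in the BS. All BS samples lay above the HC, and all HC samples above the OB and CX, which overlapped. The BS mean of 711 ± 362 (SD, n = 3) was 2.76-fold that of the HC and 23.0-fold that of the OB, and the adjusted p among the regions was 1.19e-05. The BS log2 fold change was 3.30 ± 0.86 (adjusted p = 0.0386), a call lost without BS sample 1 (unadjusted p = 0.0143). The lower call in the OB (-2.94 ± 0.94, adjusted p = 0.104) was lost without any 1 sample of the OB, HC or BS (unadjusted p = 0.01001 to 0.0355). The sum of choroid plexus markers, though not Aqp1 among them, was likewise higher in the HC and BS than in the OB and CX. Fibroblast markers summed to 642 to 2889 in the BS and 185 to 567 elsewhere. The part of either in the Slit2 result was not tested. Slit1 had 80.0, 50.2 and 25.7 in the HC and 0 to 24.5 elsewhere, with all HC samples on top but an adjusted p of 0.0900 among the regions. Slit3, with 128, 53.9 and 34.1 in the HC and 4.01 to 52.1 elsewhere, overlapped.

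Robo2, a receptor of Slits, was highest in the OB, where Slit2 was at 19.4 to 53.7. Its values were 1392, 1663 and 1560 in the OB, 272, 356 and 421 in the HC samples, 420 and 491 in the CX and 223, 411 and 244 in the BS. The OB lay above all other samples, with a mean of 1538 ± 137 (SD, n = 3), 3.38-fold that of the CX. The range of the HC overlapped with those of the CX and BS, while both CX samples lay above the BS. The OB log2 fold change was 2.16 ± 0.23 (adjusted p = 1.28e-04), and the adjusted p among the regions was 1.19e-05. Robo1, which binds the same ligands, spanned 342 to 435 over the OB samples, 427 to 480 over the HC and 239 to 667 over the BS, beside 599 and 627 in the CX, and did not pass (adjusted p = 0.355). Robo4, known from endothelium, had a mean of 21.1 and did not pass either.

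The OB-high genes were measured beside RNA of other cells of the bulb. Sp8, a transcription factor of bulb neuroblasts, had 242 to 278 in the OB and at most 4.60 elsewhere. In its list, Dcx, Dlx1, Dlx2, Dlx5 and Gad1 were likewise higher in every OB sample than in all others. Cd24a and Tubb3 were not: Cd24a had 36.1 to 87.6 in the OB and 74.6 to 179 in the BS. Omp, the olfactory marker gene of sensory neurons whose axons enter the bulb, had 98.6 to 239 in the OB and at most 1.53 elsewhere, and Stoml3 and S100a5 of the same list had 97.9 to 112 and 42.0 to 147 there. The rest of that list was not high in the OB. Cnga2 had 0 to 1.62 there, Gnal had 83.5 to 224 there and 194 to 351 in the BS, and Adcy3 was highest in the CX. The whole list of 6 sensory neuron markers summed to 373 to 745 in the OB and 124 to 391 elsewhere. Frzb, a marker of ensheathing glia, had 642 to 767 in the OB and at most 27.4 elsewhere. Ensheathing markers were at 18330 to 24610 in the OB, 10530 to 17000 in the BS and 4038 to 10010 in the HC and CX, and all 8 were detected in every OB sample. Of these, Foxd3 and Mybpc1 were at 0 in all HC and CX samples and Prss56 in all HC and BS samples. The part of ensheathing glia, neuroblasts and sensory neurons in Sema5a, Robo2, Efna5, Sema3d, Sema5b, Efnb2, Unc5c and Unc5d was not tested.

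Among the netrins, Ntn4 and Ntn1 differed among the regions in different patterns. Ntn4, a laminin-binding netrin of basement membranes, had 235, 282 and 166 in the OB, 184, 144 and 116 in the HC samples, 54.0 and 96.6 in the CX and 83.1, 52.1 and 52.6 in the BS. The OB and HC samples lay above those of the CX and BS, with an adjusted p among the regions of 0.00245. It was called higher in the OB (log2 fold change 1.32 ± 0.38, adjusted p = 0.0696), but not without OB sample 1 or OB sample 2 (unadjusted p = 0.0170 and 0.0271). The lower call in the BS (-1.22 ± 0.41, adjusted p = 0.1001) was lost without any 1 sample of the OB, HC or BS (0.0104 to 0.0419).

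Ntn1, the ligand of Dcc, was highest in the BS. Its values were 81.4, 107 and 25.3 in the OB, 27.5, 16.4 and 3.30 in the HC samples, 3.77 and 29.1 in the CX and 111, 258 and 149 in the BS. All BS samples lay above the rest, the nearest being OB sample 2. The adjusted p among the regions was 0.00834. Against the other regions the BS log2 fold change was 2.85 ± 0.86 (adjusted p = 0.0702), and the call was lost without any 1 of the BS samples (unadjusted p = 0.0106 to 0.0317).

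The netrin receptors had Dcc at the opposite end to Ntn1. Dcc had values of 28.2, 67.1 and 33.4 in the OB, 134, 116 and 121 in the HC samples, 269 and 178 in the CX and 13.7, 24.0 and 54.7 in the BS. The CX lay above the HC, and the HC above the OB and BS, which overlapped. As for Ephb1, the CX came first and the HC second, and the adjusted p among the regions was 0.00159. The part of neuronal RNA in the Dcc and Ephb1 results was not tested. No region passed alone, with log2 fold changes of 2.08 ± 0.73 in the CX and -1.79 ± 0.63 in the BS (adjusted p = 0.377 and 0.117).

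The repulsive receptors of the Unc5 family differed in direction within the OB. Unc5c had 289, 199 and 228 in the OB, 119, 119 and 78.1 in the HC samples, 192 and 132 in the CX and 59.9, 68.1 and 96.8 in the BS. Unc5d had 79.3, 133 and 84.0 in the OB, 26.2, 13.7 and 32.7 in the HC samples, 36.4 and 24.5 in the CX and 14.7, 38.1 and 37.9 in the BS. Unc5b had 33.7, 12.6 and 12.9 in the OB, 89.3, 109 and 27.9 in the HC samples, 77.9 and 96.6 in the CX and 47.3, 120 and 141 in the BS. Thus the OB lay above all others for Unc5c and Unc5d, and for Unc5b below all but HC sample 3.

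The OB log2 fold change was 1.21 ± 0.31 for Unc5c (adjusted p = 0.0409), 1.83 ± 0.39 for Unc5d (0.0154) and -2.11 ± 0.47 for Unc5b (0.0197). The Unc5c call was lost without OB sample 1 (unadjusted p = 0.0147). Unc5c was called lower in the BS as well (-1.09 ± 0.34, adjusted p = 0.0835), a call lost without any 1 OB sample, CX sample 1, BS sample 1 or BS sample 2 (0.0101 to 0.0384). Among the regions the adjusted p was 0.00337 for Unc5c. It was 0.0297 for Unc5d, lost without any 1 OB sample (0.0789 to 0.167), and 0.0265 for Unc5b, lost without OB sample 2, OB sample 3, BS sample 3 or either CX sample (0.0516 to 0.129). Unc5a had 25, 45 and 14.5 in the OB, 49.3, 42.0 and 8.81 in the HC samples, 31.4 and 36.8 in the CX and 9.46, 8.01 and 0 in the BS. It was called lower in the BS (-2.67 ± 0.72, adjusted p = 0.0466), but without BS sample 3 the value was -1.57 and the call was lost (unadjusted p = 0.0247). Among the regions its adjusted p was 0.0925.

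**Figure D5:**
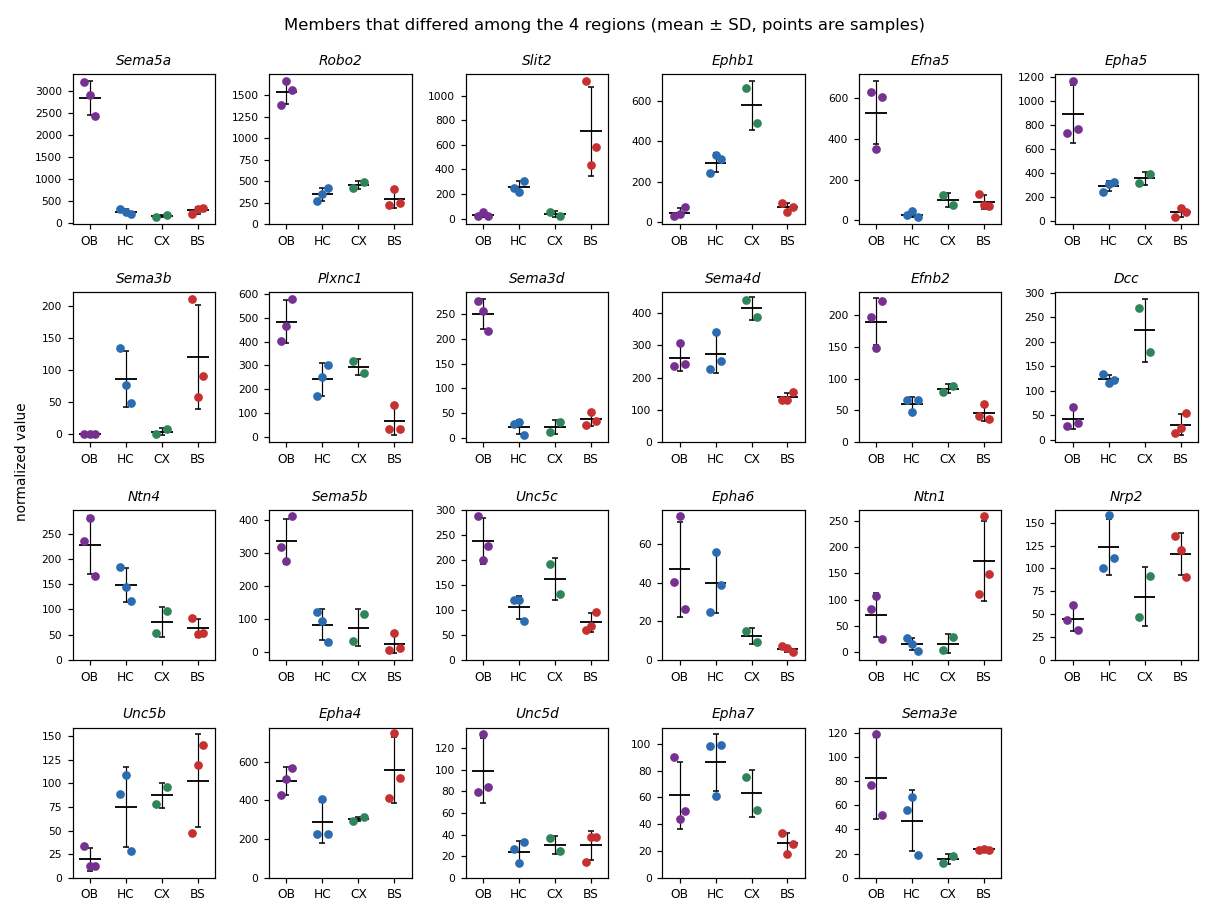
Normalized values of the 23 members with an adjusted p under 0.05 among the regions, in order of that p, with 1 point per sample and the mean ± SD of each region (3 samples in the OB, HC and BS, 2 in the CX). The OB is highest for Sema5a, Robo2 and Efna5, the BS for Slit2 and Ntn1, and the CX for Ephb1 and Dcc.

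The members called lower in the BS were measured beside higher oligodendrocyte markers, whose sum lay above all other samples in every BS sample. Astrocyte markers overlapped: their sum, most of it Slc1a2, was 96320, 284100 and 164800 in the BS, and BS sample 2 lay above all OB samples. Of the 9, Slc1a3 alone was below all other samples in the BS, with 1953, 6315 and 5142 against 14220 to 33550. BS samples 2 and 3 were the shallowest of all, while BS sample 1 had the median depth. The part of these in the calls for Epha5, Plxnc1, Sema4d, Epha6, Epha7 and Unc5a was not tested.

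Partner genes of the pathway were examined from a list of 19, all of which entered the fit. They include further guidance molecules such as RGM proteins, DSCAMs, FLRTs and netrin-G proteins. Of these 19, 8 differed among the regions, beside 16.5% of all genes tested. In the OB 4 were called higher and 1 lower (4.15% and 3.89% of all genes), in the CX 1 lower (1.74%) and in the BS 2 higher (3.98%). The lowest p-values belonged to Flrt2, Chl1 and Met. Flrt2, a ligand of Unc5 receptors, had 52.1, 73.4 and 40.9 in the OB, 323, 212 and 301 in the HC samples, 193 and 270 in the CX and 626, 651 and 551 in the BS. All OB samples lay below and all BS samples above the rest, with an adjusted p among the regions of 1.85e-06 and an OB log2 fold change of -2.69 ± 0.37. Chl1, a cell adhesion molecule of the L1 family, had 790 to 863 in the OB and 756 to 1985 in the BS, above the 189 to 420 of the HC and CX (adjusted p = 9.81e-04). Met, the receptor of hepatocyte growth factor, had 182, 158 and 149 in the OB and 4.21 to 45.2 elsewhere, with an OB log2 fold change of 3.53 ± 0.57 (adjusted p = 0.00239).

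Intracellular effectors of guidance signals were taken from a list of 40, all in the fit, of which 10 differed among the regions, again beside 16.5% of all genes. In the OB 3 were called higher and 2 lower (4.15% and 3.89% of all genes), in the HC 1 lower (1%), in the CX 1 higher and 1 lower (1.02% and 1.74%), and in the BS 2 higher and 6 lower (3.98% and 5.05%). Ablim1, Srgap1 and Dpysl3 had the lowest p-values. Ablim1, an actin-binding protein, had 1269, 1028 and 1116 in the BS and 396 to 828 elsewhere, and its BS log2 fold change was 1.05 ± 0.19 (adjusted p = 0.00538). Srgap1, which acts downstream of Robo receptors, had 181, 292 and 193 in the HC and 368 to 1472 elsewhere. All HC samples lay below the rest, with a log2 fold change of -1.54 ± 0.32 but an adjusted p of 0.270 against the other regions, and of 0.00121 among the regions. Dpysl3, of the collapsin response mediators through which semaphorins act, had 211, 241 and 174 in the OB and 30.1 to 139 elsewhere (OB log2 fold change 1.43 ± 0.37, adjusted p = 0.0413).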

How the data were processed

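RNA of sorted Aldh1l1-eGFP astrocytes was measured in 11 samples, whose groups are the regions GEO's labels give. The authors aligned reads to mm10 with STAR (2.5.0a), counted over UCSC transcripts and scaled with DESeq2 (1.20.0). The deposited value is therefore a normalized signal: a read count divided by 1 size factor per sample. Dividing by the smallest step of each sample gave whole reads for 100% of values (tolerance 0.1 of a read), and these served the count tests.

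Under R 4.3.3, log2(value + 1) was fitted by limma 3.58.1 (two-sided, variance trended on the mean). Genes first had to pass the filterByExpr function of edgeR 4.0.16, which a gene can pass through 1 region alone. Benjamini-Hochberg adjustment covered all 13875 genes tested. An F-test compared the 4 regions, and each region was also set against the others pooled. Alternatives were edgeR and DESeq2 1.42.0 on recovered reads, other pseudocounts, filters and variance models, each sample left out and a replicate block. The scripts were tested on simulated data. No 2 replicates agreed within sampling noise (chi-square per degree of freedom 7.07 to 56.9). Exon lengths and coordinates are from GENCODE M21, promoters from RefSeq, and Python 3.11.15 drew the plots.

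Per-sample values are given for members that passed the test among the regions or in a region and for the gene of highest mean in each family. For the 2 lists of other pathway genes, the 3 with the lowest adjusted p were named. Members, lists and rules were chosen with earlier results of these data known. Strandedness of the counting is not given in the sources used here.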

Additional observations from a re-analysis of the deposited data

How the results depend on the processing

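Of the calls of single genes under alternatives that kept all samples, 532 kept direction and side of the threshold, 25 fell short of it, 6 newly passed and none reversed. Leaving out each sample in turn, 547 were kept, 100 fell short and 2 newly passed, again with no reversal. The number of members differing among the regions was 19 to 24 under the other settings and 19 to 26 with a sample left out. With a sample left out, the OB had 10 to 17 calls, the BS 6 to 14, the HC 0 to 3 and the CX 0 to 3. With adjusted p under 0.05 the counts were 9, 0, 0 and 7 in the OB, HC, CX and BS. On recovered reads, edgeR with TMM factors gave 2 in the HC and 0 in the CX, edgeR with RLE factors 0 in the CX, and DESeq2 5 in the HC and 3 in the CX. A pseudocount of 0.25 gave 2 in the CX and one of 5 gave 2 in the HC, and the fit with no mean-variance trend 0 in the CX and 8 in the BS. A mean for each region, which separates the other regions in the fit, gave the HC 10 calls, the CX 7 and the BS 20. For the alternative fits and the left-out samples, no share over all genes was counted. Their counts are therefore not read as a trait of the members. Apart from the left-out samples and the adjusted rule, the causes were not tested. Over all regions, replicate numbers of the titles did not clearly pair the samples. Deviations of same-numbered samples correlated at -0.16 to 0.25 (median 0.0229, 15 pairs), those of different numbers at -0.224 to 0.183. Between the OB and HC, however, same-numbered samples correlated at 0.074 to 0.25 and those of different numbers at -0.224 to 0.0283. Whether same-numbered samples shared an animal or a batch was not tested. With the replicate block, 24 members differed among the regions, and 16, 2, 2 and 10 were called in the OB, HC, CX and BS. The block lost the calls of Ephb1 in the OB and CX, Slit2 in the OB, and Ntn4 and Unc5c in the BS. Without the mean-variance trend, Epha4, Nrp2, Ntn1, Sema3e and Unc5b no longer passed among the regions (adjusted p = 0.054 to 0.131). Depth limits the low genes: 3 reads are worth up to 6.31 in the BS, where Epha6 had values of 4.21 to 7.36. The CX has 2 samples, so that without either the lone sample is assumed to vary like the other groups.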
